A study of Mus musculus with 2 samples.

Results

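The open sites described here lay within 2 kb of a microRNA gene and over 1 kb from every protein-coding transcription start site (TSS) in whole mouse embryos at embryonic day 10.5. They were mapped by DNase-seq, in which DNase I cuts DNA where it is accessible in nuclei and the cut ends are sequenced. The embryos were healthy, of strain B6NCrl and pooled over both sexes, and the 2 biological replicates formed 1 group, so no contrast between conditions was possible. The replicates are separate samples that name the same donor record, and the number of embryos in each is not stated. A site was a 150 bp peak of replicate 1 that overlapped a replicate 2 peak by 1 bp or more, on chromosomes 1 to 19 of mm10. MicroRNA genes were those of type miRNA in GENCODE M21. The rule gave 637 sites out of 203095 replicate 1 peaks on these chromosomes, of which 151215 were shared and 116648 were shared and over 1 kb from coding TSSs (distal shared peaks). Where sites overlapped each other and were merged, 620 remained.

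A microRNA is cut from a hairpin inside a longer transcript, first by Drosha in the nucleus and then by Dicer, and it lowers the output of mRNAs that pair with its seed, bases 2 to 8 of the mature strand. Many microRNA hairpins lie in introns of coding genes and others in long non-coding RNAs (lncRNAs) or between annotated genes, so the promoter that makes the transcript can be far from the hairpin. A site near a hairpin can therefore be a promoter, an enhancer or another element, and DNase-seq does not tell these apart or measure the microRNA. In the embryo, miR-9 and miR-124 are known for neural progenitors and neurons, let-7 and miR-125 for developmental timing, and miR-199 and miR-214 for mesenchyme.

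By the site rule, neural families had the highest share of genes with a site. Genes were placed in the neural families by symbol, not by seed. Mature sequences are shown for the neural families with a site, with the seed in capitals (RefSeq, GRCm38.p6). Of the 77 listed-family genes with a site, 70 had an entry there, and the miR-124 genes are named only. MiR-132 and miR-212 share a seed, as do miR-7a and miR-7b.
miR-9-5p: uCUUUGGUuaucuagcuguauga
miR-9-3p: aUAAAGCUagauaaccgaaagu
miR-137-3p: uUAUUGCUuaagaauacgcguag
miR-128-3p: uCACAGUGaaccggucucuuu
miR-153-3p: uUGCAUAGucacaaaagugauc
miR-129-5p: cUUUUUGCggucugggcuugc
miR-132-3p: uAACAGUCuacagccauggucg
miR-212-3p: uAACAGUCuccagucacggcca
miR-219a-5p: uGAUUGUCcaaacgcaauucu
miR-138-5p: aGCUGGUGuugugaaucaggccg
miR-7a-5p: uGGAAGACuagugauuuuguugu
miR-7b-5p: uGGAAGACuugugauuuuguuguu

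Mirlet7i and Mir125b-1 were among the genes with the most sites, and each let-7 or miR-125 pair below shares its seed, again in capitals.
let-7i-5p: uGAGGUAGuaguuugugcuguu
let-7e-5p: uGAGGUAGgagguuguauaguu
miR-125b-5p: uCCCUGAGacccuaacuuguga
miR-125a-5p: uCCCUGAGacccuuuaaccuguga

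The genomic sequence of a few sites is shown, as examples, on the strand of the microRNA gene. In the strongest site near a miR-9 gene and in the site just upstream of Mir212, the capitals mark the cyclic AMP response element TGACGTCA, the letters bound by CREB family factors.
Mir9-3 upstream site, chr7:79504796-79504945, plus strand: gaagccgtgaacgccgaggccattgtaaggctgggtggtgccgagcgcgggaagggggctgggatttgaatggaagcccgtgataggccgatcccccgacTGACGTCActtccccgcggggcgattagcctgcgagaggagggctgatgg
Mir212 upstream site, chr11:75173136-75173285, plus strand: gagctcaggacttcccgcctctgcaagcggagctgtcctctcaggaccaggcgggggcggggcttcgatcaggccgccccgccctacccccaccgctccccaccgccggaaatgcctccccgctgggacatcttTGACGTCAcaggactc

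In 3 sites that overlapped a neural hairpin the capitals mark bases of mature strands with a RefSeq entry, so these peaks cover the microRNA's own bases. The marked strands are miR-137-5p and then miR-137-3p, miR-128-3p, and miR-219a-5p. Any mature strand without such an entry is left in lower case.
Mir137 site, chr3:118433816-118433965, plus strand: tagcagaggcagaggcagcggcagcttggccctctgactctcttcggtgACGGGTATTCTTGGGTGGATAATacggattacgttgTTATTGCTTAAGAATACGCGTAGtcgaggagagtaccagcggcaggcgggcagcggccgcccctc
Mir128-2 site, chr9:112118516-112118665, minus strand: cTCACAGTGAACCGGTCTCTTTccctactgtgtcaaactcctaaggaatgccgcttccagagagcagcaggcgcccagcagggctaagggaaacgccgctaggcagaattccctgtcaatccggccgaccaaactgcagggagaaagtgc
Mir219a-2 site, chr2:29845656-29845805, minus strand: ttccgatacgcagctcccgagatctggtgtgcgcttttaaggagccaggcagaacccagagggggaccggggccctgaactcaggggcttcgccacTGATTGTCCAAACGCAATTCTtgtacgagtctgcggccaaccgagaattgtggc

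In the strongest site upstream of Mirlet7i, and in that upstream of Mir210, which was the strongest of all 637 sites, the capitals mark GGGCGG or its reverse complement, the GC box.
Mirlet7i upstream site, chr10:122986416-122986565, minus strand: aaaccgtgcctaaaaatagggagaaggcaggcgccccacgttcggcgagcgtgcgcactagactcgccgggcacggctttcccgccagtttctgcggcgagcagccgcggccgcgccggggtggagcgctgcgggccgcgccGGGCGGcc
Mir210 upstream site, chr7:141221816-141221965, minus strand: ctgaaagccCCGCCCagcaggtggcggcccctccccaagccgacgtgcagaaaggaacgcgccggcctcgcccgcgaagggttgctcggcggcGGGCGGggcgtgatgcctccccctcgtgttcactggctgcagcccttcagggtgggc

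Across the samples, 13 of 18 promoters of embryonic marker genes were open in both replicates and 0 of 4 markers of adult or other tissues were. All of the neural, heart, somite and limb markers were open in both. Gata1, Klf1 and Hbb-y of red cells and Cdh5 and Tek of endothelium were not, while Kdr of endothelium was. A marker promoter counted as open where a peak lay 1 kb or less away. In a whole embryo, few cells with an open site and a weakly open site in many cells cannot be told apart. Each peak carried a whole-number score from the authors, called strength here, with a lowest value of 2 in replicate 1 and 3 in replicate 2 and a highest of 150 in both. Where a site is given a pair of strengths, replicate 1 comes before replicate 2. Its definition is not stated, and the depth of the libraries is unknown.

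Of 2054 microRNA genes, 442 (21.5%) had a site within 2 kb. The share was 16.1% for snoRNA and snRNA genes, which are short like microRNA hairpins, and 40.7% for genes of all types, whose bodies are mostly longer. Genes with a Mir symbol had a site in 266 of 1084 cases (24.5%) and predicted genes with Gm or other symbols in 176 of 970 (18.1%). A shared peak at any distance from a TSS lay within 2 kb of 627 microRNA genes (30.5%), and 185 of these genes were left without a site by the TSS rule. A single microRNA gene lay within 2 kb of 582 sites and several lay near the other 55, up to 6 genes for a site. Of the genes with a site, 279 had 1, 100 had 2, 42 had 3 and 21 had more. In replicate 1, 824 distal peaks lay near microRNA genes and 77.3% of them overlapped a replicate 2 peak, against 72.7% of all distal replicate 1 peaks.

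Strength of the 637 sites had medians of 52 and 66 in replicates 1 and 2, against 45 and 56 for all distal shared peaks. Strengths ran from 8 to 134 in replicate 1 and from 17 to 140 in replicate 2. The mean of the replicates had a median of 57.5 and quartiles of 44 and 79 for the sites, against 50, 38.5 and 69 for all distal shared peaks. The ranges overlapped widely. Taken within each library, the sites' median exceeded that of all distal shared peaks by 7 in replicate 1 and 10 in replicate 2 (8.5 ± 2.12, SD, n = 2). Sites lay closer to coding TSSs: 25.1% were 1000 to 2500 bp away, against 8.51% of all distal shared peaks. Within that distance the median mean strength was 59.5 for sites and 56 for all, and beyond 50000 bp it was 56.25 and 46.5. Sites numbered 101 per Mb of the windows around microRNA genes, against 50.7 distal shared peaks per Mb of all sequence over 1 kb from coding TSSs, these windows included. With 2 replicates, a two-sided exact permutation test of the signs of such differences cannot give a p below 0.5, and sites are not replicates.

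**Figure D1:**
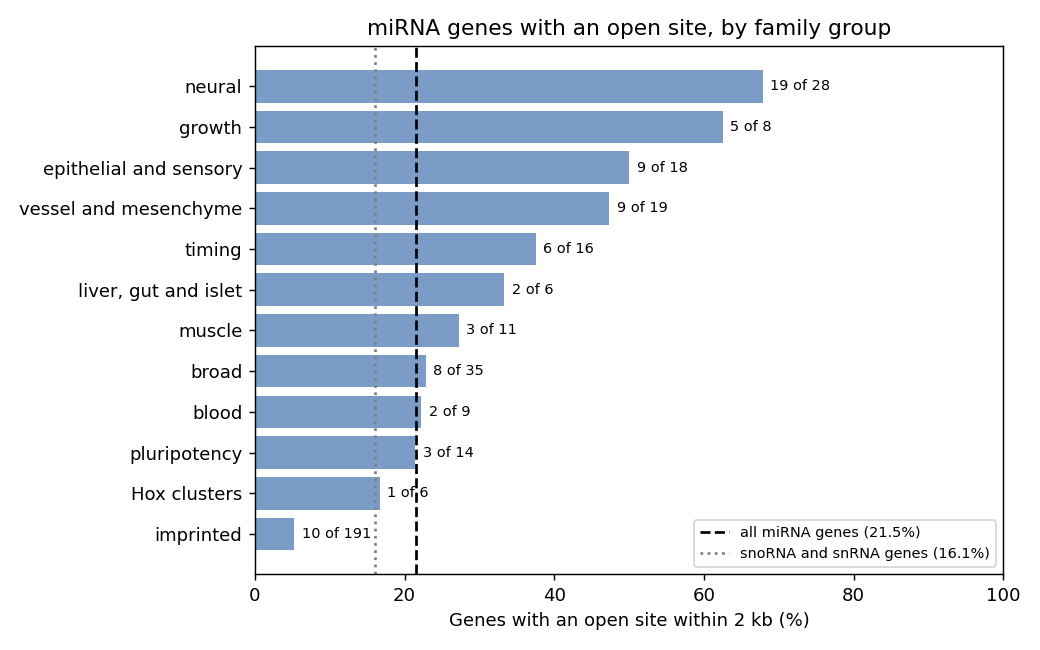
Share of microRNA genes with an open site within 2 kb (x axis, percent) for 12 groups of families, with the number of genes beside each bar. The neural group stands highest at 67.9% and the imprinted group lowest at 5.24%, beside 21.5% of all microRNA genes (dashed line) and 16.1% of snoRNA and snRNA genes (dotted line). With genes within 10 kb of each other counted once, the imprinted group had 6 of 11 (54.5%) and the neural group 16 of 24 (66.7%).

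Among 58 listed families, 57 had a gene on these chromosomes and 36 had a site. Neural families led: 19 of 28 genes (67.9%) had a site, in 10 of 11 families, against 21.5% of all microRNA genes. In the other listed families, imprinted clusters apart, 48 of 142 genes (33.8%) had one. Counting microRNA genes within 10 kb of each other once, 16 of 24 neural groups (66.7%) had a site, against 396 of 1700 (23.3%) in all. For all listed families, neural ones included, it was 52 of 117 (44.4%). Imprinted families came to 6 of 11 (54.5%), and pluripotency, growth, epithelial and sensory, and liver, gut and islet families to 50% each. Most neural genes lay in lncRNAs, where 13 of 15 had a site, against 37 of 101 other lncRNA-hosted genes with a Mir symbol. Between genes 4 of 7 neural genes had one, against 46 of 199 others with a Mir symbol, and in introns 2 of 6, against 120 of 548. The 45 neural sites had medians of 56 and 72 in replicates 1 and 2, and 36 of them lay above the median mean strength of all distal shared peaks. The 72 sites near the other listed families had close medians of 58 and 72.

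All 3 genes of miR-9, which acts on neural progenitors, had sites. Mir9-3 had the strongest, 318 bp upstream (chr7:79504796-79504945), with 123 in replicate 1 and 134 in replicate 2 (128.5 ± 7.78, SD, n = 2), and its cyclic AMP response element is shown above. A second lay 602 bp downstream with 104 and 108. Mir9-2, in the lncRNA gene C130071C03Rik, had sites of 76 and 93 at 708 bp upstream, 53 and 89 at 368 bp upstream, and 100 and 115 at 830 bp downstream. Mir9-1 had 1 site, 1052 bp upstream, with 55 and 65. All 6 sites were above the medians of all distal shared peaks, 45 and 56, in both replicates.

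All 3 genes of miR-124, the main microRNA of neurons, also had sites, 11 in all. Mir124a-3 had 4, with strengths of 50, 55, 77 and 96 in replicate 1 and 62, 81, 102 and 112 in replicate 2, strongest 808 bp downstream. Mir124a-2 had 3 upstream, at 1736, 816 and 136 bp, with 96, 73 and 45 in replicate 1 and 97, 78 and 61 in replicate 2, weaker the nearer to the hairpin. Mir124a-1 had 4, from 30 to 65 in replicate 1 and from 51 to 80 in replicate 2, and one of them overlapped the hairpin with 31 and 56. All 11 were stronger in replicate 2 than in replicate 1, as were 564 of all 637 sites.

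The miR-129 genes had 8 sites, 6 of them around Mir129-2 and its antisense partner Mir129b, which count the same sites. Those 6 were weak in replicate 1, at 22 to 56 (median 32.5), against a median of 45 for all distal shared peaks. In replicate 2 they had 39 to 71 (median 58.5), against 56. Mir129-1 had 77 and 98 at 704 bp downstream and 84 and 108 at 1524 bp downstream. The range around Mir129-2 lay below the Mir129-1 sites in both replicates. Of the 6, the site 18 bp downstream of Mir129-2 and the one over its hairpin overlapped each other and were paired with the same replicate 2 peak of 59.

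Mir137, which acts in neuron maturation, had a site over its hairpin with 58 and 72, whose sequence is shown above, and another 366 bp downstream with 40 and 63. Mir132 and Mir212, a pair induced by neuronal activity, shared 2 sites, one of 81 and 102 just upstream of Mir212 and one of 89 and 97 that reached the end of its hairpin. The first holds a cyclic AMP response element. Mir219a-2, known in oligodendrocytes, and its antisense partner Mir219b shared 5 sites, from 46 to 100 in replicate 1 and from 68 to 116 in replicate 2. One of them, with 46 and 68, overlapped both hairpins.

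Mir128-2, in an intron of Arpp21, had 62 and 77 over the hairpin and 2 flanking sites of 41 and 57 downstream and 46 and 74 upstream. Mir153, in an intron of Ptprn2, had 3 sites with 48 and 64, 37 and 65, and 76 and 74. Among miR-7 genes, Mir7b had 91 and 93 at 682 bp upstream and 54 and 63 farther out, and Mir7-2 had 62 and 68 and 65 and 66. Mir138-2 had a weak site of 40 and 31, one of the 3 sites with the largest shift toward replicate 1. The 2 miR-218 genes, known in motor neurons, had no shared peak within 2 kb.

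**Figure D2:**
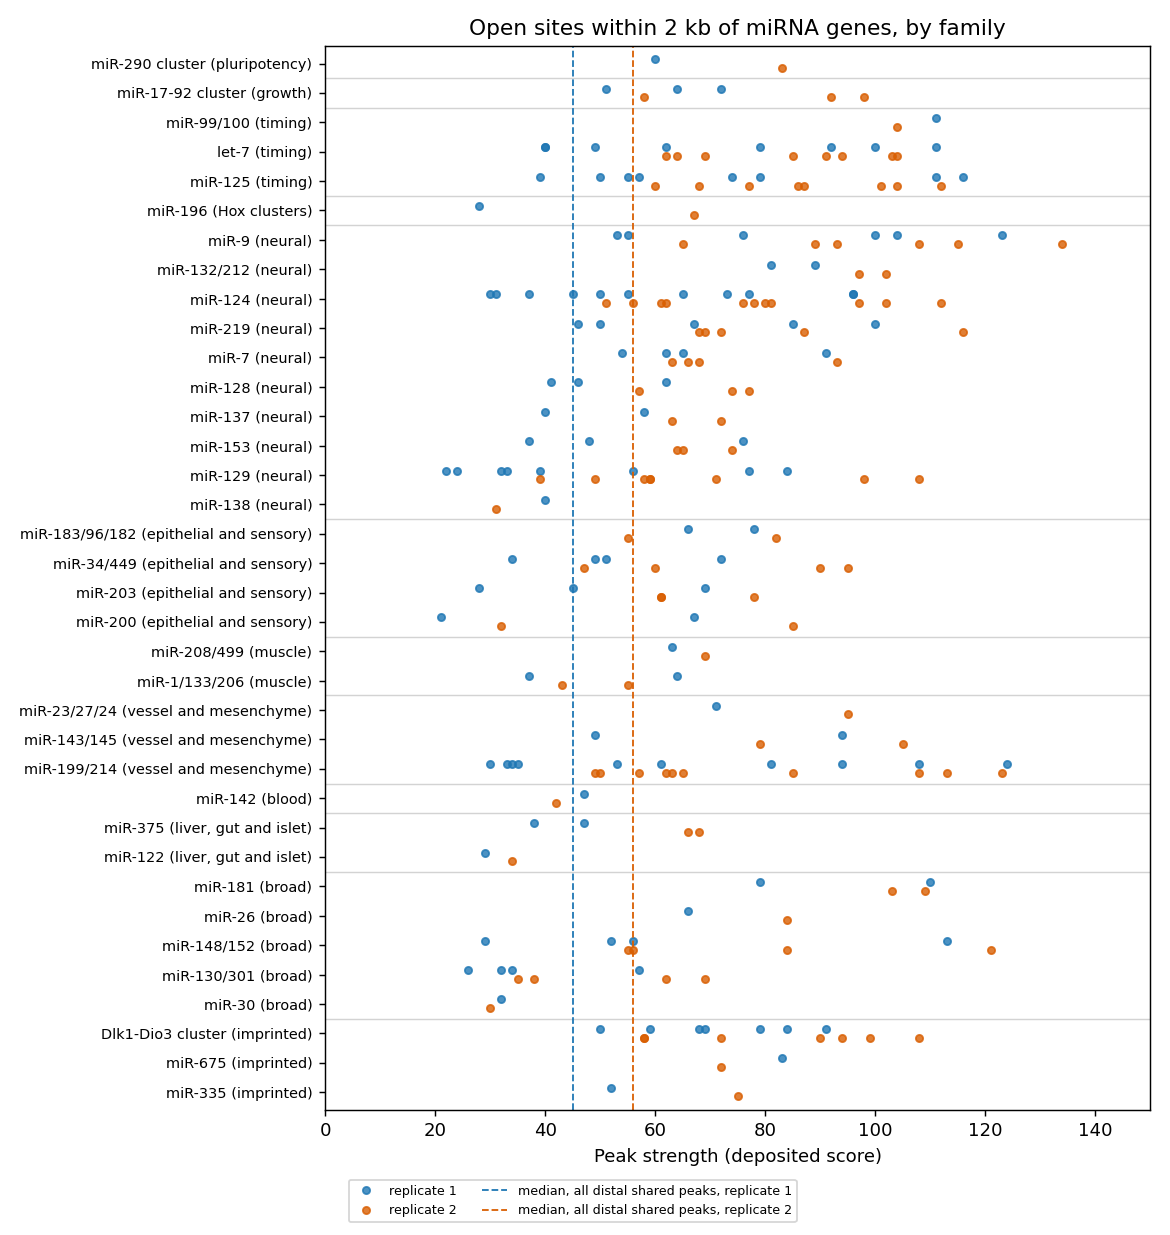
Strength of every open site near the 36 families with a site (x axis, deposited score), 1 row per family, with replicate 1 in blue and replicate 2 in orange. By mean strength, 36 of 45 neural sites and 56 of 72 others lie above the median of all distal shared peaks, whose medians of 45 and 56 are dashed, and the miR-9 row reaches 123 and 134.

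In the timing families 6 of 16 genes had a site, with 15 sites among them. Mirlet7i had 7, the most of any microRNA gene, with strengths of 40 to 100 (median 62) in replicate 1 and 62 to 103 (median 85) in replicate 2. The 3 upstream sites, with 79, 92 and 100 in replicate 1 and 94, 91 and 103 in replicate 2, were stronger than the 4 downstream ones, with 40 to 62 and 62 to 85. Only 2 of 10 let-7 genes had a site. All 3 miR-125 genes had one, and Mir125b-1 had 6, whose medians were 56 and 81.5, with the strongest at 116 and 112, 2000 bp upstream and so at the limit of the rule. Mirlet7e, Mir99b and Mir125a lie together in Spaca6 and shared 1 site of 111 and 104.

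Growth and vessel or mesenchyme families had sites for 5 of 8 and 9 of 19 genes. The 5 genes matched by symbol to the miR-17-92 cluster, which drives proliferation, had 3 sites upstream of Mir17. These sites had 72, 64 and 51 in replicate 1 and 98, 92 and 58 in replicate 2. Of these 5 genes, Mir17, Mir19a and Mir20a were within 2 kb of the first, and all 5 were within 2 kb of the others. Counting all microRNA genes, 4 lay within 2 kb of the first site and 6 of the second. The symbol match thus left out a gene there, and the growth share counts matched genes only. All 4 genes of miR-199 and miR-214 had sites. Mir199a-2, in an intron of Dnm3 on the opposite strand, had 124 and 123 at 148 bp upstream and 108 and 108 at 828 bp upstream, while its others had 34 and 63, and 53 and 62. Mir199a-1, in Dnm2, had 81 and 85, and 94 and 113, and Mir199b, in Dnm1, had 30 and 49, and 33 and 65. Mir214 had 35 and 50 over the hairpin and 61 and 57 downstream. Mir145a and Mir143 of smooth muscle shared 2 sites, of 94 and 105 and of 49 and 79. Mir23a, Mir27a and Mir24-2 shared 1 of 71 and 95.

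Epithelial and sensory families had a site at 9 of 18 genes. Mir34b and Mir34c, known in ciliated cells, shared 3 sites of 49 and 60, 72 and 95, and 51 and 90, and 2 of them overlapped a hairpin. Mir34a had a weaker one of 34 and 47 over its hairpin. Mir183, Mir96 and Mir182 of sensory cells had 2 sites between them, of 78 and 82 and of 66 and 55. Mir203 of the epidermis had 69 and 78 at 34 bp upstream, and Mir141 and Mir200c shared 67 and 85 and the weak 21 and 32.

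Other groups had 1 or a few genes with a site. Muscle had 3 of 11: Mir206 with 64 and 55, Mir499 with 63 and 69 and Mir133c with 37 and 43. Blood had 2 of 9, Mir142 and its antisense Mir142b, which shared 47 and 42. Liver, gut and islet had 2 of 6, with Mir122 at 29 and 34 and Mir375 at 38 and 68 and at 47 and 66. Pluripotency had 3 of 14 through 1 site of 60 and 83 in the miR-290 cluster. Hox clusters had 1 of 6, Mir196a-1 with 28 and 67. Of the broadly used families, Mir148a reached 113 and 121 and Mir181c and Mir181d shared a site of 110 and 109, but only 8 of 35 genes had a site. Mir26a-1 had 66 and 84, Mir148b 56 and 84 at its stronger site, Mir130a 57 and 62 at its strongest, Mir301 34 and 69, and Mir30a a weak 32 and 30. Among imprinted clusters 10 of 191 genes had one, 8 in the Dlk1-Dio3 region, where Mir3072 had the strongest of 7 sites with 91 and 108, Mir675 in H19 with 83 and 72, and Mir335 in Mest with 52 and 75. The Sfmbt2 intron cluster had 0 of 119 genes with a site.

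The 21 families without a site were miR-302 with miR-367, miR-106b-25, miR-10, miR-615, miR-218, miR-205, miR-204 with miR-211, miR-126, miR-140, miR-21, miR-144 with miR-451, miR-150, miR-155, miR-146, miR-192 with miR-194 and miR-215, miR-15 with miR-16, miR-29, miR-101, the Sfmbt2 cluster, miR-483 and miR-296 with miR-298. MiR-10, miR-615, miR-150 and miR-483 had a shared peak within 2 kb that lay within 1 kb of a coding TSS, and the other 17 had none. The miR-106b-25 genes had a distal peak in each replicate, but the peaks of the replicates did not overlap. In 16 of the 21 families neither replicate had a distal peak within 2 kb. A missing peak in a mixture of cell types does not show that the site was closed in every cell.

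**Figure D3:**
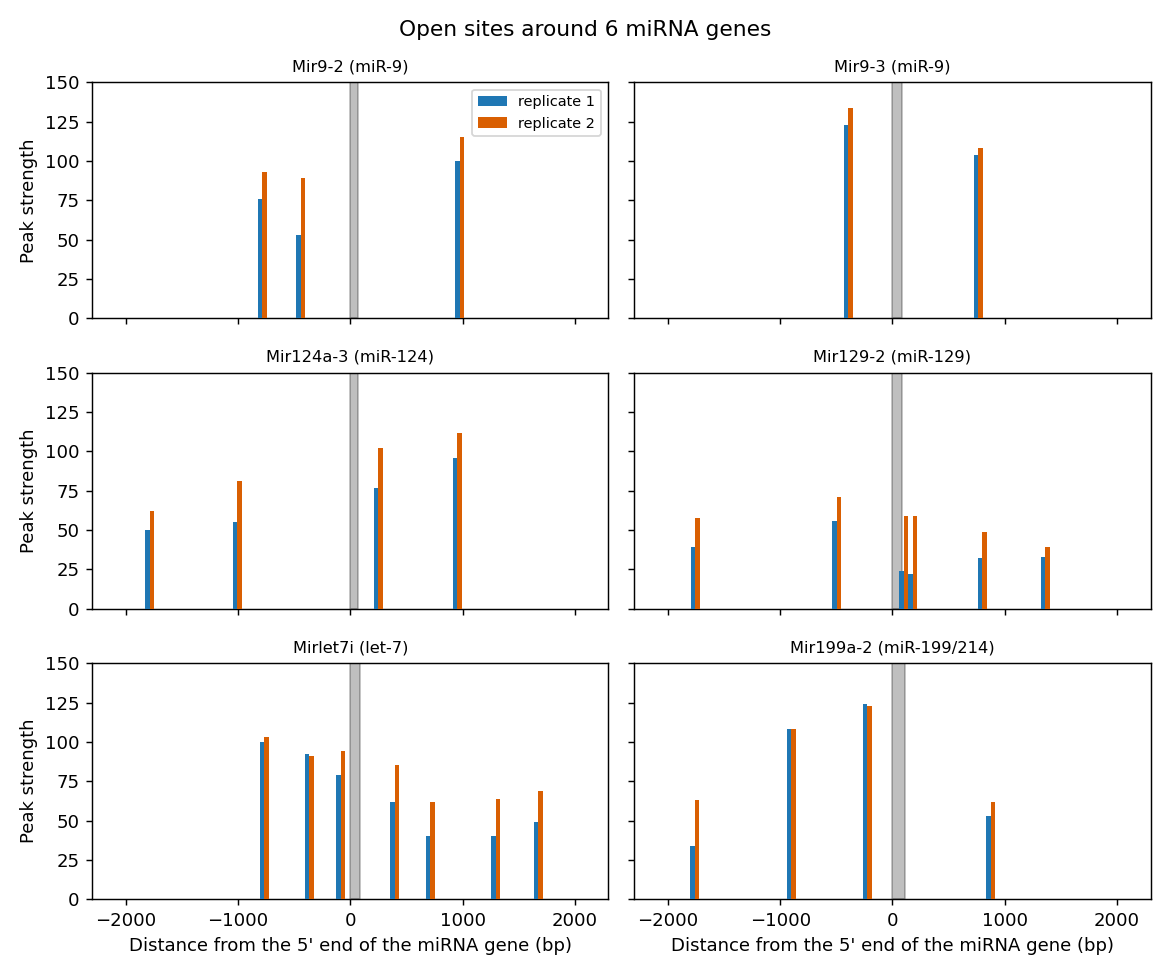
Strength (y axis, deposited score) of each open site around 6 microRNA genes, plotted by the distance of its centre from the gene's 5' end (x axis, bp, upstream to the left), with replicate 1 in blue, replicate 2 in orange and the gene in grey. At Mirlet7i the 3 upstream sites stand above the 4 downstream ones, while at Mir124a-3 the strongest lies downstream at 96 and 112, and the 59 drawn at both of the inner Mir129-2 sites is 1 replicate 2 peak.

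The 10 strongest sites scored 117 to 134 in replicate 1 and 126 to 140 in replicate 2, with a lowest percentile of 99.7 among the mean strengths of all distal shared peaks. Mir210, the microRNA of the hypoxia response, had the highest, 134 and 138 (136 ± 2.83, SD, n = 2), 322 bp upstream. Mir7000 in Mapk8ip1 had 129 and 140, Mir9-3 123 and 134, and Mir7655 in Mllt10 125 and 131 and also 122 and 126. Mir6516 in the lncRNA gene Snhg20 had 123 and 132, the predicted gene Gm47305 had 128 and 127, and Mir1983 had 123 and 131 over the hairpin. Mir6976 in Srf, which encodes serum response factor, had 123 and 130 and Mir1894 in Ppp1r10 had a mean of 125 ± 11.3 (SD, n = 2). Of these sites 7 were upstream, 2 downstream and 1 over the gene, and 1, that of Mir9-3, belonged to a listed family. The coding TSS was near in some cases, at 1083 bp for Mir6976 and 1199 bp for Mir7655. A lncRNA TSS lay at 0 bp from the Mir6516 site and at 243 and 28 bp from the Mir7655 sites. The other sites of the 10 lay 4675 bp or more from one.

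After Mirlet7i, 6 genes tied with 6 sites: Mir125b-1, Mir129-2, Mir129b, Mir5103, Mir7655 and n-TStga1. The symbol n-TStga1 has the form used for tRNA genes, though GENCODE types it as miRNA, and its 6 sites ran from 36 to 105 in replicate 1 and from 77 to 120 in replicate 2.

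Sites at intergenic microRNA genes had slightly higher medians than those at intronic ones in both replicates. The 190 intergenic sites had medians of 52 and 67.5 in replicates 1 and 2, and the 239 intronic sites had 51 and 64. The difference of intergenic minus intronic medians was 1 in replicate 1 and 3.5 in replicate 2 (2.25 ± 1.77, SD, n = 2), and 2.75 on the sites' mean strength. With all peaks of replicate 2 and no overlap needed, it turned to -3, and with all peaks of replicate 1 it was 0. The quartiles overlapped, at 36.25 to 75 for intergenic and 38 to 68.5 for intronic sites in replicate 1. The share of genes with a site was 19.3% in both classes, 126 of 652 intergenic and 171 of 885 intronic.

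Mir210 and Gm47305 led the intergenic class with Mir1983 and the predicted gene Gm25306, which had 119 and 128, and 118 and 123. Mir7000, Mir7655, Mir6976 and Mir199a-2 led the intronic class. Among intronic genes 120 of 688 on the strand of the host had a site (17.4%) and 51 of 197 on the opposite strand (25.9%), with median strengths of 51 and 64, and of 50 and 63. Among intergenic genes the 82 sites near Mir symbols had medians of 57.5 and 71, and the 108 near predicted genes had 46 and 61.

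Genes inside lncRNAs had a site in 60 of 177 cases (33.9%). Their 97 sites had the highest class medians, 56 and 72, and 52.6% of them lay within 1 kb of a lncRNA TSS. Genes that overlap coding exons had one in 85 of 340 (25%), with medians of 45 and 65. A site need not lie in the same kind of place as its microRNA gene. Of the 111 sites at exonic genes, 37 lay over coding exons themselves, 47 in introns and 27 between genes. By the place of the peak itself, the 225 sites between genes had medians of 52 and 69, against 45 and 55 for all distal shared peaks there. The 86 sites in lncRNA genes had 55.5 and 71, against 47 and 58. The 256 in coding introns had 50 and 64, against 45 and 55, and the 70 over coding exons had 47.5 and 58.5, against 47 and 61.

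**Figure D4:**
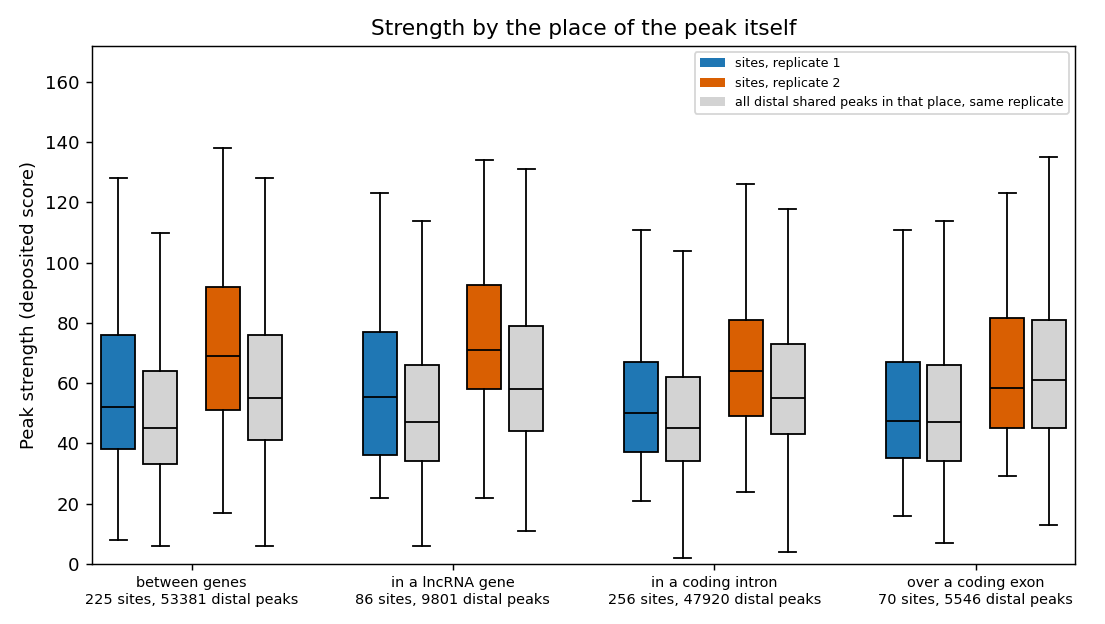
Strength (y axis, deposited score) of sites in replicate 1 (blue) and replicate 2 (orange) by where the peak itself lies, each left of all distal shared peaks that lie in such places in the same replicate (grey). Boxes are quartiles with the median and whiskers reach up to 1.5 interquartile ranges; boxes overlap everywhere, and over coding exons the medians of 47.5 and 58.5 stand beside 47 and 61 for the grey boxes.

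Sites lay on both sides of the hairpins in near equal numbers. Of the 637, 46 (7.22%) overlapped a microRNA gene, and of the others 293 (49.6%) were upstream and 50.4% downstream. At gaps up to 500 bp there were 78 upstream and 58 downstream sites, above 500 and up to 1000 bp 71 and 74, above 1000 and up to 1500 bp 63 and 86, and above 1500 bp 81 and 80. Upstream sites had medians of 55 and 71, downstream sites 47 and 62, and overlapping sites 49.5 and 69 in replicates 1 and 2. The upstream quartiles of 40 and 76 in replicate 1 overlapped those of 35 and 67 downstream. Within the Mir symbols the upstream medians were 58 and 74, against 48 and 63 downstream, and near predicted genes they were 45 and 63, against 46 and 59. More of the upstream sites lay within 1 kb of a lncRNA TSS, 48 against 23 downstream, and without these the medians were 54 and 68 upstream, against 46 and 62 downstream.

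Of the 46 overlapping sites, 23 covered bases of a mature microRNA in the RefSeq table, which held a mature entry for the nearest gene of 28 of them. The strongest were Mir1983 and a site of Gm25306 with 118 and 123, followed by n-TStga1 with 77 and 111, Gm25470 in an intron of Foxp2 with 87 and 100, and Mir212 with 89 and 97. At the edge of the rule, the 55 sites 1800 to 2000 bp from a microRNA gene had medians of 52 and 67, and the 65 shared peaks 2000 to 2200 bp away had 48 and 65. The 42 sites 1000 to 1200 bp from a coding TSS had 56.5 and 80.5, and the 43 peaks 800 to 1000 bp from one had 52 and 69.

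In base composition, sites had a median GC content of 52.7%, against 50% of all distal shared peaks. An observed to expected CpG ratio over 0.6, the mark of CpG-rich promoters, was seen in 17.9% of sites, against 7.94%. A lncRNA TSS lay within 1 kb of 12.4% of sites, against 3.63%, and those 79 sites had a median mean strength of 66.5, against 56.5 for the other sites. Repeat-masked bases made up 11.6% of sites on average, against 10.3%.

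Motifs were counted as exact letters on both strands. The GC box GGGCGG occurred in 13.5% of sites, against 6.60% of all distal shared peaks, and the CTCF core AGGGGGC in 9.26%, against 6.24%. The TEAD letters GGAATG occurred in 8.95%, against 11.3%, and the E-box CATCTG in 15.4%, against 19.6%. The E-box CAGCTG (15.4% of sites, against 17.1%), GATA letters AGATAA (6.12%, against 6.37%), SOX letters ACAAAG (15.2%, against 16.4%) and ACAATG (9.26%, against 9.68%) and AP-1 letters TGANTCA (5.81%, against 5.45%) were closer. So were the NFY letters CCAAT (17.4%, against 17.97%) and the ETS letters CCGGAAG (1.57%, against 1.26%). The homeobox letters TAATTA (3.45%, against 4.23%), Hox-Pbx letters TGATTNAT (2.67%, against 4.06%) and TATAAA (4.08%, against 5.67%) were lower. Matches of different motifs can share bases, as where AGGGGGC runs into GGGCGG. Sites were also richer in GC, and the part of base composition in these shares was not tested.

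The cyclic AMP response element TGACGTCA was added after the sites were seen. It occurred in 5 sites (0.785%), against 0.309% of all distal shared peaks. They were the Mir9-3 and Mir212 sites shown above, one of Gm47305 with 128 and 127, one of Mir124a-2 with 96 and 97 and one of Mir124a-3 with 55 and 81. All 5 lay upstream of the microRNA gene, and 4 of the 5 belonged to neural families. Of all 637 sites, 293 lay upstream and 45 were neural. The letters were picked with these sites in view, so the counts only describe them, and a link to neural families was not tested. In CpG-rich peaks the share with the element was 4 of 114 sites (3.51%), against 0.950% of 9261 distal shared peaks.

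The replicates ranked the sites alike, with Spearman's rho of 0.891 over 637 sites, against 0.879 over all distal shared peaks, both across peaks that share a library. On the log2 scale, replicate 2 exceeded replicate 1 by a median of 0.29 over the sites and 0.27 over all distal shared peaks. The sites farthest toward replicate 2 were one in Mllt10 near Mir7655 with 28 and 77, one just downstream of Mir129-2 with 22 and 59, and one near Gm24158 with 22 and 55. Relative to the median of all distal shared peaks, their log2 ratios were 1.19, 1.16 and 1.05. Farthest toward replicate 1 were Mir1957b in Wdr59 with 39 and 29, Gm26115 with 48 and 36 and Mir138-2 with 40 and 31, at -0.69, -0.68 and -0.64.

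The stretches of raised signal that the authors called as hotspots were wider in replicate 2 for 507 of the 637 sites and 41 of the 45 neural sites. So were those of 55 of the 72 sites near other listed families. The share over all distal shared peaks was not counted. All sites lay in a hotspot of each replicate, with a median width of 310 bp in replicate 1 and 490 bp in replicate 2, against 281 and 328 bp for all distal shared peaks. Hotspots of 1000 bp or more held 53 sites (8.32%) in replicate 1 and 181 (28.4%) in replicate 2, against 3.46% and 11.6% of all distal shared peaks. Of the 45 neural sites, 4 lay in such a hotspot in replicate 1 and 30 in replicate 2, where their median hotspot width was 1311 bp. Of the 72 sites near other listed families, 14 did in replicate 1 and 25 in replicate 2, including all 8 near let-7 genes. Around Mir9-2 the widths were 144 to 629 bp in replicate 1 and 6618 bp in replicate 2, and around Mir124a-3 they were 363 to 1538 bp and 6086 bp. Mirlet7i had 144 to 1339 bp and 3443 bp. Neighbouring sites shared these hotspots and are not separate events, and the depth of the replicates, which can move hotspot width, is unknown and its part was not tested.

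**Figure D5:**
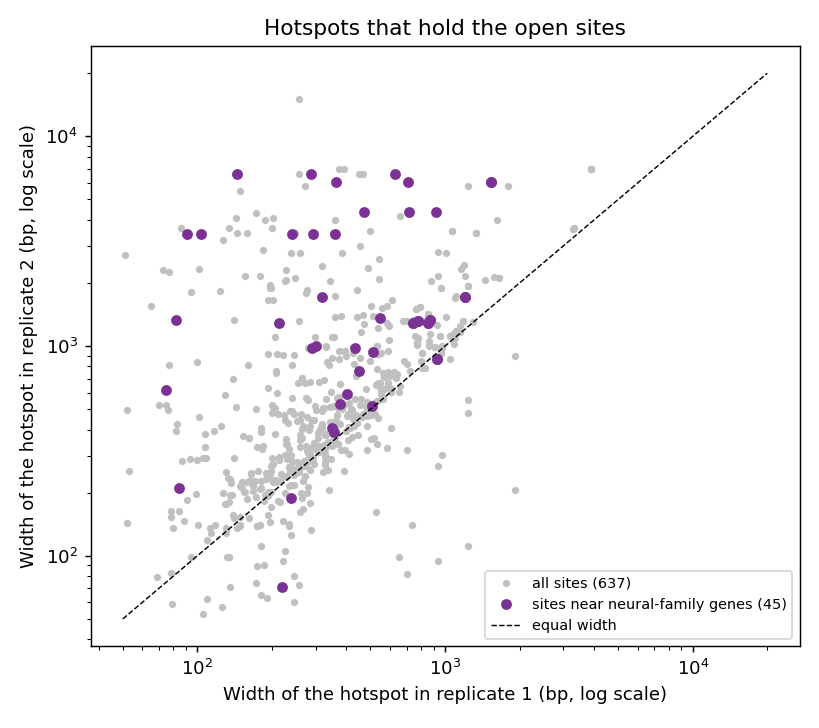
Width of the hotspot that holds each of the 637 sites in replicate 1 (x axis, bp, log scale) and replicate 2 (y axis, bp, log scale), with the 45 sites near neural-family genes in purple. Most points of all 637 sites, purple ones included, lie above the dashed line of equal width, and the purple ones reach up to 6618 bp in replicate 2.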

How the data were processed

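DNase-seq peaks and hotspots of 2 replicates were analysed on mm10, the build given per the labels. The authors deposited, per replicate, 150 bp peaks with a whole-number score, and hotspots with the −log10 of a q-value. The score's definition, aligner, caller, thresholds and library depth were not given in the sources used here, so no interval that needs depth is given. Repeated peak lines (28 and 47) were dropped.

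Peaks were joined to GENCODE M21 and to RefSeq GRCm38.p6 sequence, whose chromosomes are those of mm10, with Python 3.11.15, pandas 2.3.3 and NumPy 2.4.6 (figures with matplotlib 3.10.9). A gap ran from edge to edge. The nearest microRNA gene gave the class, in the order exonic, intronic, lncRNA-hosted, intergenic, on either strand. Sites near a family count every member gene within 2 kb, not only the nearest. Replicate 2 strength came from the replicate 2 peak of longest overlap, which neighbouring sites can share. The rule was tested on simulated data. Differences between sets of sites were taken within each replicate and are given with their SD. No p-value was computed: the smallest that a two-sided exact permutation test allows with 2 replicates is 0.5.

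The members, 58 families, 14 motifs and tests were chosen with earlier results of these data known. Named sites were the strongest of each family, the 10 strongest, the 5 strongest intergenic, intronic and overlapping, the genes with most sites and the 3 most shifted to each replicate; other sites of named families are also given. Neural totals, medians by the place of the peak, widths of 1000 bp and the cyclic AMP response element were chosen after seeing the data. Alternatives changed the overlap, distances, TSSs, gene symbols, strength and replicates.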

Additional observations from a re-analysis of the deposited data

Results flagged for a closer look

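Hotspots of both replicates lay within 2 kb of 12 microRNA genes that had no peak of either replicate there (0.978% of 1227 such genes), a signal in files that the site rule does not use.

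Chromosome X, left out by the rule, had an open site within 2 kb of 16 of its 142 microRNA genes (11.3%). Its 15 sites had a median strength of 39 in replicate 1 and 51 in replicate 2. The strongest were near Mir351 with 85 and 93, Mir542 with 81 and 84 and Mir106a with 76 and 74.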

How the results depend on the processing

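The number of sites, 637, became 327 within 1 kb of the microRNA gene, 1406 within 5 kb and 393 for Mir symbols alone, and 824 to 1022 when 1 replicate was left out. The share of microRNA genes with a site, 21.5%, became 12.3% within 1 kb and 40.6% within 5 kb, 25.2% over 500 bp and 16.1% over 2500 bp from coding TSSs, 19.3% with TSSs of all but small RNA genes, 24.5% for Mir symbols, 15.9% for the stronger 50% of peaks, 22.8% without the Sfmbt2 cluster and 23.3% with genes within 10 kb counted once. It was 26.0% to 27.7% with 1 replicate left out. Median strength, 57.5, became 70.5 for the stronger 50% of peaks and 43 to 52 with 1 replicate left out. The intergenic minus intronic difference, 2.75, became 6.5 for Mir symbols, 7.75 for the stronger 50% of peaks and 7.25 with the strongest site per group of genes. With replicate 2 left out it was 0 and with replicate 1 left out it turned to -3, so it has no settled direction; the cause was not tested. The overlapping share, 7.22%, became 6.67% with an overlap of 75 bp, 14.1% within 1 kb and 3.27% within 5 kb, 6.81% over 500 bp and 8.81% over 2500 bp from coding TSSs, 6.45% with TSSs of all but small RNA genes, 7.63% for Mir symbols and 6.16% to 6.67% with 1 replicate left out.

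The neural share, 67.9%, became 60.7% within 1 kb, 78.6% within 5 kb, 75% over 500 bp from coding TSSs or with no TSS rule, 64.3% for the stronger 50% of peaks and 66.7% with genes within 10 kb counted once. With no TSS rule, epithelial and sensory families and Hox clusters had 66.7%, vessel and mesenchyme 63.2% and growth 62.5%. The remaining groups had 37.5% or less, and all microRNA genes 30.5%. The neural share was 71.4% with either replicate left out, and the growth families, with 8 genes, then stood higher at 100%. These neural alternatives, the Sfmbt2 one, the counting of groups and the merging of peaks were chosen after seeing the data. No paired analysis was possible because there is 1 group of samples, with no second group whose replicate numbers could be matched to it; differences between sets of sites were taken within each replicate. Unknown depth limits what a missing peak shows.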
